A study of Homo sapiens with 2 samples.

Results

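Accessible chromatin was described around 10 genes of the BCL2 family in H1 cells. A region of the deposited peak list was counted as a member when its summit, the position of highest signal, lay in the GENCODE body of BCL2, BCL2L1, MCL1, BAX, BAK1, BCL2L11, BBC3, PMAIP1, BID or BAD or within 50 kb of it. This gave 123 regions of 160327, and 0 of the 123 fell in the windows of more than 1 gene. H1 is an established human embryonic stem cell line, and its cells had been frozen, thawed, treated with DNase I and purified on Ficoll before ATAC-seq, in which a transposase cuts and tags open DNA. The 2 samples form 1 untreated group and share 1 peak list with 236878 summits, so no value exists per sample and no comparison between conditions or test over samples was possible. The labels give neither the karyotype nor whether the samples came from separate cultures.

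BCL2 family proteins decide whether the outer membrane of the mitochondrion is breached, the step that releases cytochrome c and starts the caspase cascade. Guardians (BCL2, BCL-XL from BCL2L1, and MCL1) hold the effectors BAX and BAK in check, and BH3-only proteins (BIM from BCL2L11, PUMA from BBC3, NOXA from PMAIP1, BID and BAD) relieve that hold or activate the effectors directly. Human pluripotent stem cells are known to enter apoptosis readily, and gain of the part of the long arm of chromosome 20 that holds BCL2L1 is a recurrent change in their culture.

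The sequences under the strongest summits at the starts of 7 of the 10 genes differed in the motifs they matched. Each is given on the strand of its gene, 5′ to 3′, over at most 101 bp centred on the summit and without annotated UTR. Capitals mark matches, on either strand, to the 21 motifs that were searched. The GC box is GGGCGG, the motif bound by SP and KLF factors, the NFY motif is GATTGG, the E box is CACGTG, and the p53 element was searched by its 10-base consensus.
BCL2, hg38 chr18:63320145-63320245, minus strand: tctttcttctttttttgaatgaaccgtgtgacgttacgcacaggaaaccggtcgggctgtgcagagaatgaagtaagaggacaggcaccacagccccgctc
BCL2L1, hg38 chr20:31723624-31723724, minus strand: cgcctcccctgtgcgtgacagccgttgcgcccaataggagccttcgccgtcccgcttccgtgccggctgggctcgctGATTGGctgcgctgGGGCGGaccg
MCL1, hg38 chr1:150579739-150579792, minus strand: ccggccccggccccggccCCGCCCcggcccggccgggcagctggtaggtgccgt
BAX, hg38 chr19:48954714-48954814, plus strand: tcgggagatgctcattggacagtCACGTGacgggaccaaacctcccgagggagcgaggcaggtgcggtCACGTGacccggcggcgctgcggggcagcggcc
BAK1, hg38 chr6:33580294-33580350, minus strand: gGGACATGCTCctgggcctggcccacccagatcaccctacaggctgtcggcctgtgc
BCL2L11, hg38 chr2:111120802-111120902, plus strand: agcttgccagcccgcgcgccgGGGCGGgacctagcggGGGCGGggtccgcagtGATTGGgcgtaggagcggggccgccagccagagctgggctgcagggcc
PMAIP1, hg38 chr18:59899856-59899956, plus strand: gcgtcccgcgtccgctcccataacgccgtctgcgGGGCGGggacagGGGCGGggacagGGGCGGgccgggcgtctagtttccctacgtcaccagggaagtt

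GC boxes stood in these windows at BCL2L1, MCL1, BCL2L11 and PMAIP1, at even spacing at PMAIP1. The BAX window instead held a pair of E boxes and no GC box, the BAK1 window held a p53 element, and the BCL2 window matched none of the 21 motifs. The MCL1 stretch had 88.9% G+C and the BCL2 window 51.5%, but the MCL1 stretch was cut to 54 bp and the BCL2 window was not cut. Over 201 bp around the summit, MCL1 had 70.1% and BCL2 67.2%. The full 101 bp window of MCL1 also held an ETS match (CCGGAAG), outside the stretch shown. A match describes letters only, and binding was not measured.

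All 10 genes had a region whose summit lay within 1000 bp of the start of the Ensembl canonical transcript, here called a promoter region. Of 20033 protein-coding genes, 75.6% had one. The fold of the strongest promoter region, which is the authors' enrichment of its summit over an undescribed background, ran from 2.66 at BBC3 to 10.9 at BAX and BAD. Its median over the 10 genes was 8.55, against 9.54 over the 15152 coding genes with a promoter region (10th to 90th percentile 4.49 to 15.2), and 4 of the 10 lay above that median. The genes fell into a set between 8.05 and 10.9 (PMAIP1, BCL2L1, MCL1, BAK1, BAX and BAD) and a set between 2.66 and 5.72 (BBC3, BCL2L11, BID and BCL2), with guardians and BH3-only genes in both. This grouping was read from the same 10 values and depended on the start used. BCL2L1 had 4.16 with a promoter window of 500 bp, and BCL2 had 15 when any annotated start was allowed. The list carries no error for a fold, so neighbours in this order such as BAK1, BAX and BAD at 10.7 to 10.9 cannot be ranked.

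**Figure D1:**
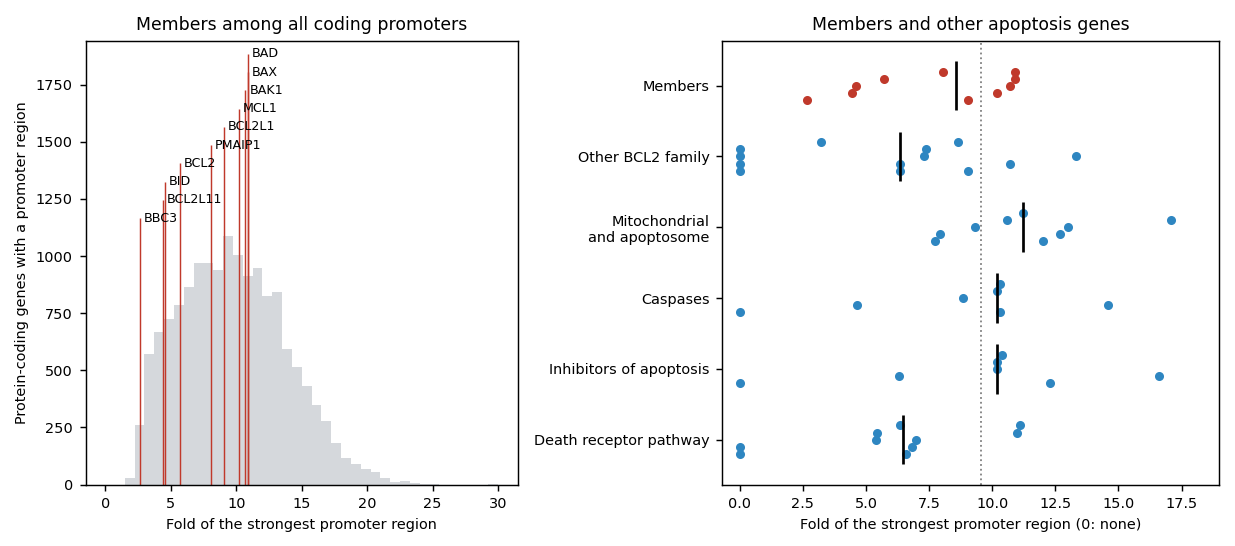
Left, histogram of the authors' fold of the strongest promoter region over all protein-coding genes that have one, with a red line for each of the 10 genes; right, the same fold for the 10 genes (red) and for 5 lists of other apoptosis genes (blue), where 0 means no promoter region, the black bar is the median of the list and the dotted line the median of all coding genes with a promoter region. The 10 genes reach from 2.66 to 10.9 and so cover the lower and middle part of the histogram. None enters the upper tail above 15.2. The black bars count genes without a promoter region as 0, whereas the dotted line leaves such genes out.

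Among the guardians, BCL2 is the founding member of the family and holds the mitochondrial membrane closed by binding BH3 domains. Its gene lies on the minus strand at chr18:63123346-63320128, and its promoter region, chr18:63319619-63320953, was 1335 bp wide. The strongest of its 3 summits had a fold of 5.72 at 426 bp upstream of the start, and the others had 3.32 at 191 bp upstream and 3.16 at 29 bp downstream. Only 17.9% of coding promoters with a region had a lower fold than BCL2. By the ratio of observed to expected CpG over 1001 bp around the start (0.942), the BCL2 promoter belongs to decile 10, the most CpG-rich, of coding promoters. In that decile 96.8% of promoters had a region, with a median fold of 8.89, and BCL2 stood at the 16.5th percentile of them. A separate region in the coding sequence, 1545 bp downstream of the start, had a higher fold (7.49) than the promoter region.

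The open chromatin of BCL2 lay mainly inside and beyond the gene. Its window of 297 kb held 20 regions, of which 18 were distal, meaning that their summit lay outside 1000 bp of the canonical start of every gene. All 18 had BCL2 as the nearest coding start, and 12 of the 20 lay in the gene body. The density was 6.74 per 100 kb, at the 52.6th percentile of coding genes, so the count of 20 goes with a long window. Of all regions within 50 kb of a coding gene, 82.5% were distal. The strongest member region of all 123 was in a BCL2 intron 164140 bp downstream of the start (chr18:63155207-63155939) with a fold of 16.3, and 2.28% of all regions in the list had a higher one. Next came an intronic region 181066 bp downstream (15), which lies within 1000 bp of the start of an annotated BCL2 transcript without a defined coding sequence, and an intergenic region 244473 bp downstream (13.7). Upstream, a region in an intron of KDSR, the neighbouring gene for an enzyme of sphingolipid synthesis, reached 11.3 at 20384 bp from the BCL2 start. The fold at the BCL2 start (5.72) was therefore exceeded by 10 of the 18 distal regions around the gene.

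The strongest regions away from the starts were also unlike in sequence. The summit windows of the strongest distal region of BCL2, described above, and of PMAIP1, described below, matched none of the 21 motifs and are shown whole, on the strand of the gene.
BCL2, 164140 bp downstream, hg38 chr18:63155579-63155679, minus strand: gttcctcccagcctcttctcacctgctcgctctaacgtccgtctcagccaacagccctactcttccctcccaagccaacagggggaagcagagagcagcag
PMAIP1, 35646 bp upstream, hg38 chr18:59864300-59864400, plus strand: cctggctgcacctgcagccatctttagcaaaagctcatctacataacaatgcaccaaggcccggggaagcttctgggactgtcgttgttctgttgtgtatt

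BCL2L1 encodes BCL-XL, a guardian that binds both effectors. The gene lies on the minus strand at chr20:31664452-31723989 and had 2 regions near its canonical start. The stronger, chr20:31723198-31724135, had a fold of 9.05 at 806 bp upstream, where 45.3% of coding promoters with a region had a lower fold. The weaker, chr20:31722523-31723113, had 4.16 at 67 bp upstream, and it alone remained when the promoter window was narrowed to 500 bp, so the gene's promoter fold depended on that choice. RefSeq places a start of the gene 1095 bp upstream of the canonical one, beyond the stronger region's main summit.

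The BCL2L1 window held 9 regions, or 5.64 per 100 kb, below the median of coding genes (6.54). That position depended on the flank: with 20 kb its density was 7.03 against a median of 6.75, and with 100 kb it was 10.4 against 6.42. Its strongest region was the promoter of TPX2, a spindle assembly gene on the opposite strand, with a fold of 15.5 (chr20:31738774-31739588). Of its 5 distal regions, the strongest (10.7) lay 61129 bp downstream of the start and past the end of the gene, and the next (6.27) lay 88447 bp downstream, near the start of COX4I2 (2.46), a gene for a subunit of cytochrome c oxidase. Both carried a CTCF match near the summit. The 3 distal regions inside the gene were weaker, at 3.33 to 5.04.

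MCL1 encodes a guardian with a short-lived protein, for which steady transcription is known to matter. Its promoter region, chr1:150578714-150580131, had a fold of 10.2 at 132 bp upstream of the start and a further summit of 6.09 at 259 bp downstream, and stood at the 55.6th percentile of coding promoters with a region. Its window held 15 regions, or 12.6 per 100 kb, which is denser than 94.1% of coding genes. No distal region reached the promoter's fold: the highest of the 8 was 7.81, in an intron of ENSA 25329 bp upstream, with an AP-1 match (TGANTCA) at its summit, and the next were 5.25 and 4.11. Of the 8, 1 had MCL1 as the nearest coding start. The strongest region of the window was the promoter of ENSA, a regulator of mitotic phosphatase, with a fold of 14.9.

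The effectors BAX and BAK form the pores in the outer mitochondrial membrane. Their promoter folds were alike, 10.9 for BAX at 111 bp upstream (chr19:48954432-48955511) and 10.7 for BAK1 at 24 bp upstream (chr6:33579762-33580471). They stood at the 61.9th and 60.0th percentiles of coding promoters with a region. G+C content around the summits was also alike, 67.7% at BAX and 66.2% at BAK1. The promoters differed in CpG frequency around the start: BAX, with an observed to expected CpG ratio of 0.755, lies in decile 6 of coding promoters, and BAK1, with 0.312, in decile 3, where only 48.5% of genes had a promoter region.

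The surroundings of both effectors differed more than their starts. BAX had 16 regions at 15 per 100 kb, denser than 98% of coding genes, and BAK1 had 8 at 7.42 per 100 kb. No region had its strongest summit inside either gene body, though the BAX promoter region had a weaker summit (3.85) 374 bp into the gene. Around BAX, 4 neighbouring coding genes had their starts in the window, all 4 with a promoter region (DHDH 13, FTL 7.06, and 11.5 for the region shared by GYS1 and RUVBL2). Of its 9 distal regions, the strongest had folds of 8.08, 8.03 and 6.41, and 1 of the 9 had BAX as the nearest coding start. BAK1 had 5 distal regions, the strongest with a fold of 9.28 at 8908 bp downstream, in an intron of GGNBP1, which spans the gene on the other strand, and the others between 3.00 and 4.54.

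**Figure D2:**
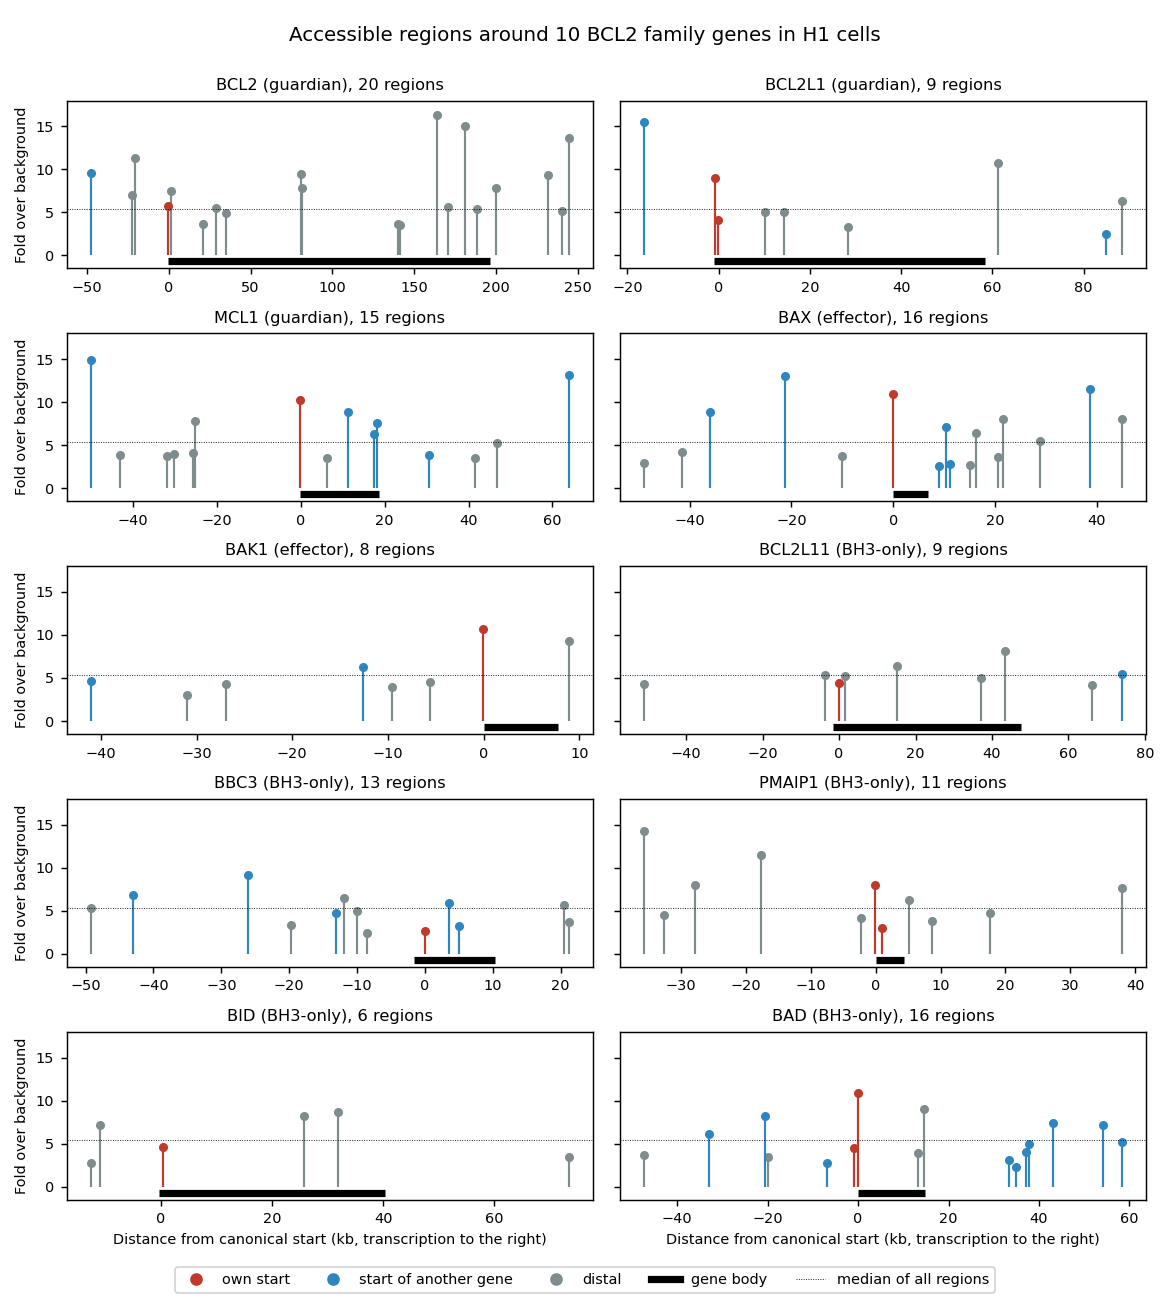
Each panel shows 1 gene, with the distance of each region's summit from the canonical start on the x axis (kb, transcription to the right) and the authors' fold on the y axis; red marks regions at the gene's own start, blue those at the start of another gene, grey distal ones, the black bar is the gene body and the dotted line the median fold of all regions (5.38). At BCL2, BCL2L11, BID and PMAIP1 grey stems are the tallest of the panel, whereas at BAK1 and BAD a red stem is the tallest.

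The BH3-only genes held the lowest and 1 of the highest promoter folds. BBC3, which encodes PUMA, a strong inducer of apoptosis and a known target of p53, had a promoter region of 391 bp (chr19:47231124-47231514) with a fold of 2.66 at 43 bp upstream of the canonical start. Only 0.808% of coding promoters with a region had a lower fold. By the authors' −log10 p it was 19.6, at the 6.06th percentile. The 201 bp around the summit held 84.1% G+C, more than 98.9% of coding promoters with a region. Among coding genes in the same decile by CpG ratio (0.848, decile 8, where 96.9% have a promoter region with a median fold of 9.71), BBC3 stood at the 0.747th percentile.

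BBC3 has annotated starts on both sides of the canonical one. The outermost, 1567 bp upstream and shared by 3 coding transcripts, had no region within 1000 bp, and the RefSeq start lies 1468 bp upstream. A region 3475 bp downstream of the canonical start, with a fold of 5.92, was close to the start of a transcript with a retained intron and to MIR3191 and MIR3190. The BBC3 window held 13 regions (11.6 per 100 kb, denser than 91.0% of coding genes), and 6 of its 7 distal regions had a higher fold than its start. The strongest distal ones reached 6.48 at 11977 bp upstream, 5.66 at 20411 bp downstream and 5.32 at 49222 bp upstream. The promoter of CCDC9, at 9.15, was the strongest region of the window.

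BCL2L11 encodes BIM, which binds all guardians. Its promoter region, chr2:111120399-111121032, had a fold of 4.43 at 62 bp upstream, at the 9.59th percentile of coding promoters with a region and at the 7.04th among those of the most CpG-rich decile. A wider region (1234 bp) with a fold of 5.18 lay 1609 bp downstream, at the start of another coding transcript. The outermost annotated start, 1536 bp upstream, had no region within 1000 bp. Its window of 149 kb held 0 starts of other coding genes and 9 regions, and 5 of the 7 distal ones exceeded the promoter's fold. The strongest were 8.14 in UTR sequence towards the gene's end (43376 bp downstream), 6.39 in an intron (15058 bp downstream) and 5.34 in an intron of ACOXL (3718 bp upstream).

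PMAIP1 encodes NOXA, a BH3-only protein that acts chiefly on MCL1 and is another known target of p53. Its promoter region, chr18:59899364-59900427, had a fold of 8.05 at 90 bp upstream and a further summit of 4.82 at 304 bp upstream, and a separate region with 3.04 lay 984 bp downstream. By fold it stood at the 36.8th percentile of coding promoters with a region, and by −log10 p (230) at the 76.2nd. Fold and −log10 p thus ranked this promoter differently, and the reverse held at BAX, at the 61.9th percentile by fold and the 41.5th by −log10 p (103).

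PMAIP1 is 4.31 kb long, has 0 other coding starts in its window, and had 11 regions there, or 10.5 per 100 kb. Among coding genes without a coding neighbour in the window it was denser than 92.4%. Its 9 distal regions were all intergenic and all had PMAIP1 as the nearest coding start. The strongest lay 35646 bp upstream (chr18:59863885-59864628) with a fold of 14.3 and a −log10 p of 421, and the next lay 17674 bp upstream (11.5) and 27800 bp upstream (7.96). The first and the second of these exceeded the promoter's own fold.

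BID links death receptors to the mitochondrion, since caspase-8 cuts it into its active form. Its promoter region was the widest of the 10 (1511 bp, chr22:17773111-17774621) but weak, with 4 summits of fold 2.41 at 17 bp upstream and 4.59, 3.40 and 3.65 at 492, 862 and 1060 bp downstream. The highest stood at the 10.7th percentile of coding promoters with a region. The BID window held 6 regions, the fewest of the 10 genes, at 4.27 per 100 kb and the 22.7th percentile of coding genes. The 2 strongest were in its introns, 8.68 at 31855 bp and 8.19 at 25732 bp downstream, followed by 7.22 at 10906 bp upstream.

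BAD is a BH3-only protein that binds BCL2 and BCL-XL and is held inactive by phosphorylation. Its promoter region, chr11:64284114-64284939, had the highest fold of its window, 10.9 at 63 bp upstream, at the 62.0th percentile of coding promoters with a region. A region 805 bp upstream (4.45) was shared with the start of GPR137, which runs the other way. BAD lies in a dense stretch with 14 other coding starts, of which 12 had a promoter region, and 12 of its 16 regions were at starts. Its density, 13.9 per 100 kb, exceeded 96.7% of coding genes but only 69.4% of those with 10 or more coding neighbours. The 4 distal regions had folds of 8.98, in coding sequence 14541 bp downstream, and 3.45 to 3.91.

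Summed over the 10 genes, 77 of the 123 regions were distal, or 62.6% (95% Clopper-Pearson interval 53.4 to 71.2%, which covers counting error only). In the whole list 86.2% of regions were distal, and among the 116742 regions within 50 kb of any coding gene 82.5% were. Regions at coding starts made up 27.6% of the members (34, interval 20.0 to 36.4%) and 9.71% of the list. BAD alone gave 11 of these 34. The members were drawn by gene windows, whereas the shares of the list count each region singly, however many genes lie near it. The shares are therefore not measured alike, and no share per window of all coding genes was computed. The member regions were no stronger than others: their median fold was 5.34 (10th to 90th percentile 3.17 to 10.9) against 5.38 (3.20 to 11.9), and 61 of 123 lay above the median of the list. Distal members had a median of 5.16 against 5.17 for all distal regions, and members at coding starts 6.44 against 8.68 for all regions of that kind. By role, the median fold was 5.99 for the 44 regions around guardians, 5.08 for the 24 around effectors and 5.01 for the 55 around BH3-only genes. Over distal regions alone it was 5.39, 4.29 and 5.09, and among the guardians it was 7.25 at BCL2, 5.04 at BCL2L1 and 5.25 at MCL1 over all their regions. The order of the roles thus differed between these counts. Regions of 1 locus share a neighbourhood and are not independent, so no test was made.

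Whether a gene's own start or something else dominated its window differed among the 10. At BAK1 and BAD the own promoter was the strongest region. At BCL2L1, MCL1, BAX and BBC3 the promoter of another gene was, and at BCL2, BCL2L11, PMAIP1 and BID a distal region was. This split depended on the flank and was not made over all coding genes. The promoters of ENSA near MCL1, DHDH near BAX and CCDC9 near BBC3 each lay outside a flank of 20 kb. With that flank the own promoter would be the strongest at MCL1 and BAX, and a distal region (6.48) at BBC3. Over all 10 genes, 27 of the 77 distal regions had a higher fold than the promoter region of their gene, 10 of them at BCL2, 6 at BBC3, 5 at BCL2L11, 3 at BID, 2 at PMAIP1 and 1 at BCL2L1. This was not counted over all coding genes, so whether these counts are high or low is not known. Some of these distal regions lay within 1000 bp of another annotated start of their gene. They include those at BCL2 with folds of 7.49 and 15 and that at BCL2L11 with 5.18.

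**Figure D3:**
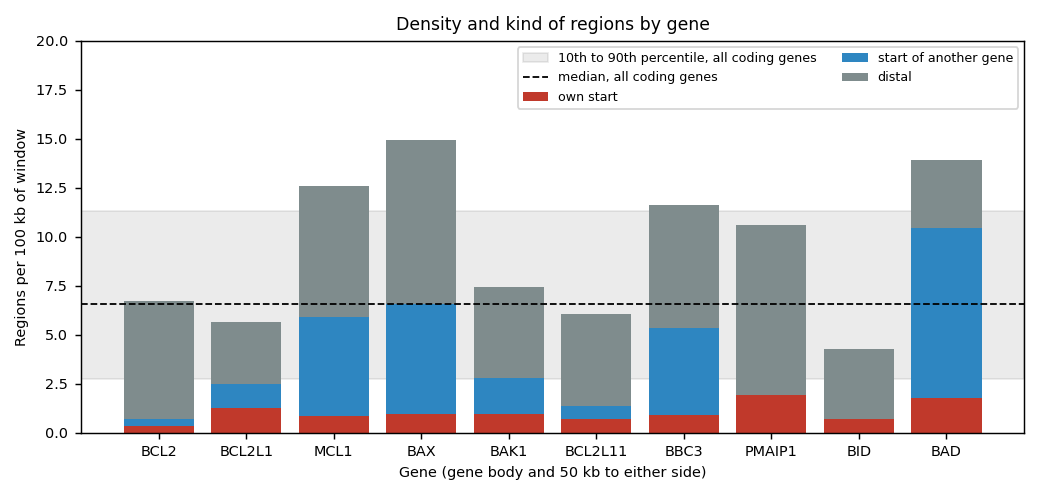
Regions per 100 kb of window (gene body and 50 kb to either side) for each gene, stacked by kind: own start (red), start of another gene (blue) and distal (grey); the dashed line is the median of all coding genes (6.54) and the grey band their 10th to 90th percentile (2.75 to 11.3). BAX, BAD, MCL1 and BBC3 rise above the band, and in BAD most of the bar is blue.

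Density rose mainly where coding neighbours were many. Over all coding genes its median was 6.01 per 100 kb with 0 other coding starts in the window and 5.92 with 1 to 2. It was 6.91 with 3 to 5, 9.58 with 6 to 9 and 12.2 with 10 or more. Against genes with as many neighbours, BAX stood at the 98.4th percentile, MCL1 at the 97.7th, BBC3 at the 96.0th and PMAIP1 at the 92.4th, whereas BID stood at the 26.6th and BCL2L1 at the 45.6th. In all, 7 of the 10 genes were above the median density of coding genes. Some regions lay close to the edge of a window. At BCL2L11 a region of fold 4.26 lay 542 bp inside it and others of 7.14 and 4.90 lay 760 and 928 bp outside it, and the ENSA promoter (14.9) was 45 bp inside that of MCL1. At BCL2L1 a region of fold 9.54 lay 1469 bp outside.

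Motif matches within 50 bp of the summits were counted beside base composition. The GC box was in 36 of 123 member windows, or 29.3% (21.4 to 38.1%), against 10.3% of all regions. At distal members alone it was in 12 of 77 (15.6%, 8.32 to 25.6%) against 5.69%, and at coding starts in 18 of 34 (52.9%) against 47.5%. Median G+C content moved with it, 60.2% over 201 bp in members against 49.3% in the list and 53.7% against 48.3% in distal regions, and its part in the difference was not tested. The TEAD motif (CATTCC) went the other way, in 6 of 123 windows (4.88%, 1.81 to 10.3%) against 11%. The NFY motif was in 12 (9.76%, 5.14 to 16.4%) against 4.74%, and the ZIC motif (CAGCAGG) in as many against 8.90%. For NFY the member interval covered the share of the list within each kind of region. It was in 7.79% of distal members (2.91 to 16.2%) against 3.84%. At coding starts it was in 17.6% (6.76 to 34.5%) against 12.4%.

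**Figure D4:**
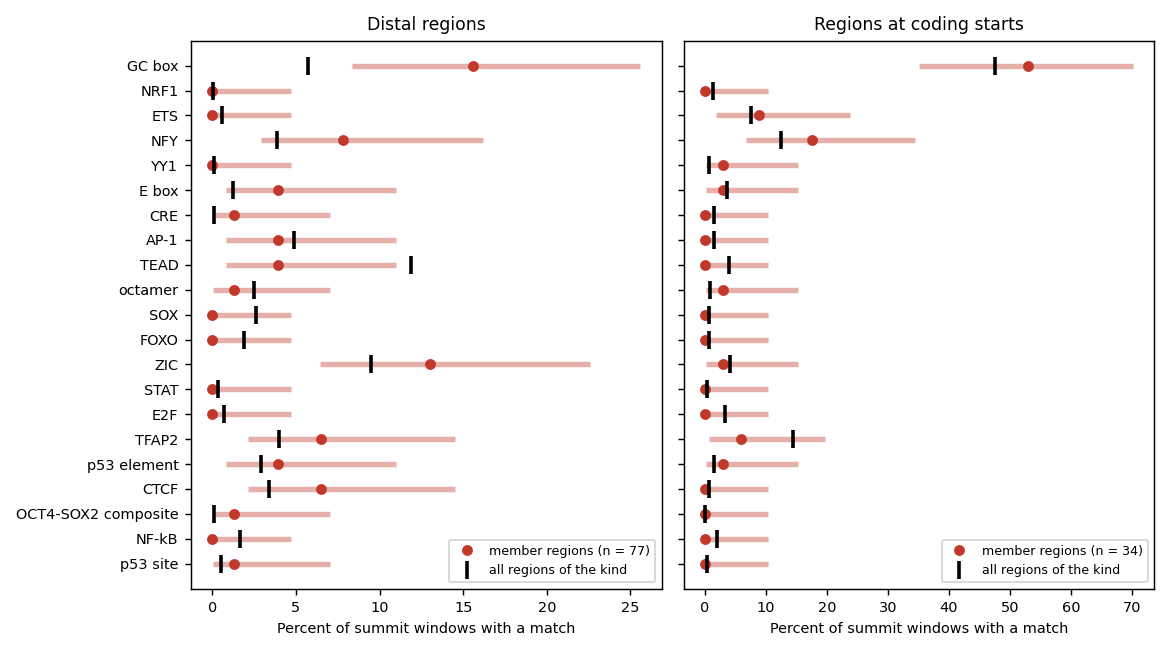
Share of 101 bp summit windows with a match to each of 21 motifs, at distal regions (left) and regions at coding starts (right); red points are the member regions with their 95% Clopper-Pearson intervals and black ticks are all regions of that kind in the list. Among distal regions the GC box tick (5.69%) lies below the interval of the members and the TEAD tick (11.9%) above it.

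CTCF, the protein that with cohesin anchors chromatin loops, has a long motif that was searched by name. It matched near the summit of 5 member regions (4.07%, 1.33 to 9.23%, against 3.09% of all regions), and all 5 were distal. The matches are shown with 15 bp to either side, on the strand that carries them, in capitals.
BCL2L1, 61144 bp downstream, fold of the region 10.7, hg38 chr20:31661704-31661745, plus strand: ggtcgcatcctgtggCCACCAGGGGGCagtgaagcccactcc
BCL2L1, 88442 bp downstream, fold 6.27, hg38 chr20:31634406-31634447, plus strand: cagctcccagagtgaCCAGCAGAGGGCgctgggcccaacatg
BAX, 16232 bp downstream, fold 6.41, hg38 chr19:48971087-48971128, minus strand: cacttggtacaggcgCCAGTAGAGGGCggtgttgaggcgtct
BID, 31870 bp downstream, fold 8.68, hg38 chr22:17742579-17742620, plus strand: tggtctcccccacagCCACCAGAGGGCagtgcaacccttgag
BAD, 19819 bp upstream, fold 3.45, hg38 chr11:64304464-64304505, minus strand: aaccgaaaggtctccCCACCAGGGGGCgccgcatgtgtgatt
At BCL2L1 and BID these include the strongest distal region of the gene, and both BCL2L1 matches lie beyond the gene's end.

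The p53 site was searched as a pair of the 10-base elements with at most 13 bp between them, at most 2 mismatches and the core of each element intact. Near the summit it matched in 1 of 123 member regions (0.813%, 0.0206 to 4.45%) against 0.488% of all, and over whole regions, a choice made after seeing the data, in 4 (3.25%) against 3.38%. So the share in whole member regions was that of the list. The 4 regions were the promoters of BAX, PMAIP1 and BAD and a distal region of PMAIP1. The BAX match, with 2 mismatches and 12 bp between the elements, lay 452 bp from the summit, and the PMAIP1 promoter match, with 2 mismatches and adjoining elements, lay 348 bp from it.
BAX, 341 bp downstream, hg38 chr19:48955186-48955247, plus strand: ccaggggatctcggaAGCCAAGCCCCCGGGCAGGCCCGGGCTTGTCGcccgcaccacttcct
PMAIP1, 438 bp upstream, hg38 chr18:59899534-59899583, plus strand: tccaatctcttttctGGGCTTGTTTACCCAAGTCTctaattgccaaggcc

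The distal match with the fewest mismatches lay 32552 bp upstream of PMAIP1, 14 bp from the summit of a region with a fold of 4.48 (chr18:59867264-59867612). It had 1 mismatch and 1 bp between the elements. The same region was the only member with a match to the OCT4-SOX2 composite, the joint motif of the pluripotency factors. That is 0.813% of members (0.0206 to 4.45%), an interval that covers the 0.0848% of all regions. In the stretch below, the composite is read on the minus strand over the leading 15 capitals. The p53 match with 1 mismatch begins at the next base and fills the other 21. Overlapping p53 matches with 2 mismatches, and with 5 or 10 bp between the elements, run past the capitals and are not marked there.
PMAIP1, hg38 chr18:59867409-59867464, plus strand: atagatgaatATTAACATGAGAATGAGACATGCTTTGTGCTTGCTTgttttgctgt
No member window matched the NRF1 (CGCATGCG), FOXO (TGTTTAC), STAT (TTCCNGGAA) or NF-kB motif, which allows a share of up to 2.95%. Between 0.202% and 1.75% of all regions held each of them. With 100 bp to either side of the summit, FOXO was in 3 member windows (2.44%, against 3.35% of all regions), NF-kB in 3 (against 3.34%), STAT in 2 (1.63%, against 0.737%) and NRF1 in 0.

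The RefSeq promoter sequences (GRCh38.p14, from 250 bp before to 50 bp after a start) gave a view of the starts that does not depend on summits. They were matched for 9 of the 10 genes, all but MCL1. The NFY motif stood in 5 of these 9 (BAX, BAK1, BCL2L11, BBC3 and BAD) and in 15.1% of all 35116 promoters. The E box stood in 3 (BAX, BBC3 and BID) against 7.26%, and the GC box in 7 against 45.0%. BCL2L11 alone held the FOXO motif (TGTTTAC; 3.42% of all promoters), and the p53 site was in 0 of the 9 (1.46% of all). Several of the genes have more than 1 RefSeq start, and a gene was counted when any of them matched. The shares over all promoters instead count each sequence singly, so the counts and the shares are not measured alike.

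The rest of the apoptosis pathway was read from 5 lists. Of 46 genes, 38 had a promoter region, beside 75.6% of all protein-coding genes. The median fold was 8.29 over all 46, counting 0 where there was no promoter region, and 9.74 over those with one. The latter compares with 9.54 over coding genes with a promoter region. The list medians below count 0 in the same way, unless given over genes with a promoter region. The mitochondrial and apoptosome genes had one in 9 of 9, with folds from 7.73 to 17.1, led by CYCS, which encodes cytochrome c (17.1), and DIABLO, an antagonist of inhibitors of apoptosis (13). Caspases had one in 6 of 7 (median 10.2), with CASP6 at 10.3, and CASP8 had none at the canonical start and 3.98 at another. Inhibitors of apoptosis had one in 6 of 7 (median 10.2), with BIRC2 at 16.6, BIRC3 at 12.3 and none at NAIP.

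The other 2 lists had lower medians, and their counts stand beside the same 75.6% of all coding genes. The death receptor genes had a promoter region in 8 of 10 (median 6.48, or 6.72 over those with one). TNFSF10 had 11.1 and TNFRSF10A 11, with no promoter region at FASLG or at the canonical start of TRADD (4.78 at another). The other BCL2 family genes had a promoter region in 9 of 13 (median 6.35, or 7.37 over those with one). They were led by BNIP3L (13.3) and BCL2L13 (10.7), with none at BCL2A1, BCL2L10, BCL2L14 and BCL2L15. HRK, a further BH3-only gene, was the lowest of those with a region at 3.20, chosen here after its value was seen.

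Since BCL2L1 lies in a part of chromosome 20 that stem cell cultures often gain, the folds around it were set against the rest of the chromosome. Within 1 Mb of the gene, 71 distal regions had a median fold of 4.39, against 5.22 for the other 2442 distal regions of chromosome 20, a ratio of 0.841. Their density was 34.5 per Mb against 39.1, but within 500 kb it was 42.5 against 38.9, so the direction of the density turned with the distance. Of 1331 autosomal stretches of 2 Mb with at least 20 distal regions (median 5.18, 10th to 90th percentile 4.69 to 5.77), 1.65% had a lower median. The same measure was low around MCL1 (4.47, 2.55th percentile) and BAD (4.52, 3.46th percentile), and between the 21.8th and 69.4th percentiles around the other 7 genes. Within 500 kb of BCL2L1 the ratio was 0.959 and within 2 Mb 0.878. Chromosome 20 as a whole had a median of 5.22, where the autosomes ranged from 4.90 to 5.34. Since the background under the fold is not described, the fold is not a measure of copy number, and a gain was not tested.

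**Figure D5:**
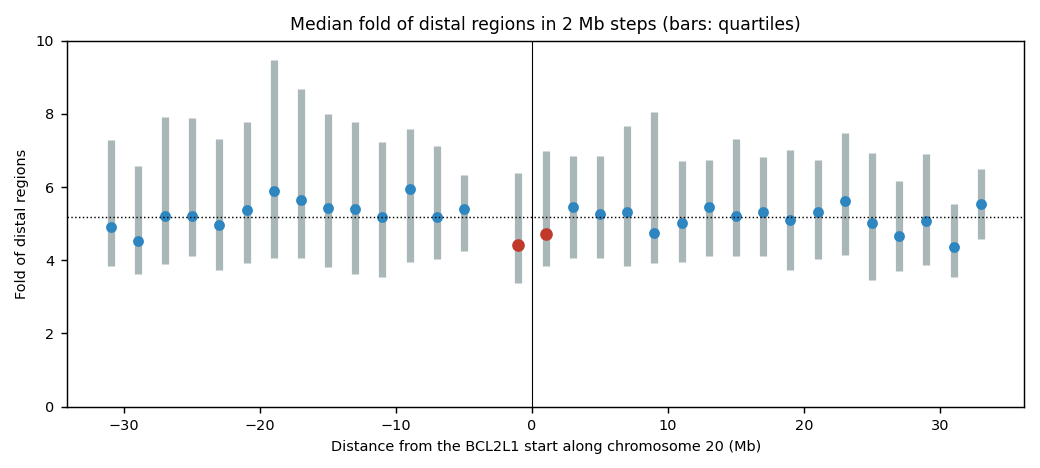
Median fold of distal regions in steps of 2 Mb along chromosome 20, by distance from the BCL2L1 start, with bars from the lower to the upper quartile; red marks the steps next to BCL2L1 and the dotted line the median of all distal regions of the list (5.17). The red points, at 4.42 and 4.73, are below most others, and the step from 30 to 32 Mb is as low at 4.35.

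The labelled cell type was read from markers in the same list. A promoter region stood at 9 of 10 pluripotency genes, beside 75.6% of all coding genes. The exception, POU5F1, had one at another annotated start (5.54). Of 5 fibroblast genes 3 had one (4.24 to 6.88), and of 4 blood genes 0 did. What part other cells have in the regions around the BCL2 family was not tested.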

How the data were processed

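ATAC-seq of H1 cells (2 samples, 1 group) was represented by 1 peak list. Per the submitters' processing notes the build was GRCh38. The sources used here do not give the aligner, caller, read shift or thresholds. Read depth was not analysed here. Units follow the narrowPeak layout. The deposited fold is a ratio over an undescribed background, the deposited −log10 p, like the −log10 q (at least 4.03), comes from the caller, the deposited score was not used, and the deposited summit offset was used as given. Fold and −log10 p served only to describe, rank and filter regions.

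Rows sharing all coordinates were merged into 1 region, represented by its summit of highest fold. Genes, transcripts and canonical starts came from GENCODE release 44 and sequence from hg38. Percentiles are over all 20033 protein-coding genes, or those with a promoter region. Motifs were matched on both strands in 101 bp windows, and overlapping matches were allowed. Intervals are exact binomial (Clopper-Pearson, 95%). Python 3.11.15, pandas 2.3.3, numpy 2.4.6, scipy 1.17.1 and pysam 0.24.0 were used, and the counting was tested on simulated data.

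The members, the pathway lists, the motifs and the markers were chosen with earlier results of these data known. The genes and regions named are all 10 members, their promoter regions, their 3 strongest distal regions, those with a p53 site or an OCT4-SOX2 composite, those at the window's edge, neighbours whose promoter is the strongest of the window, and of each pathway list the 2 strongest genes and up to 4 without a promoter region. Other neighbours were named for context. Some items under this rule are not reported here.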

Additional observations from a re-analysis of the deposited data

How the results depend on the processing

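No replicate could be left out, since both samples share 1 list. No paired analysis was possible because there is only 1 group and the list carries no replicate number. The number of member regions was 123 when any summit or an overlap of 1 bp was used, 77 with a flank of 20 kb, 203 with 100 kb, and 77 with regions of −log10 p above the median of the list (27.7). Distal members were 50, 133 and 41 under the last 3 settings, against 77, and 87 or 66 with other definitions of a start. All 10 genes kept a promoter region within 500 bp, but 8 did at the outermost start (0 at BCL2L11 and BBC3) and 8 with −log10 p above the median, where 71.4% and 68.2% of coding genes did. The pathway count was 36 with 500 bp and 40 with any start, where 69.6% and 80.5% of coding genes had a promoter region. At any annotated start the promoter fold was 15 for BCL2, 5.18 for BCL2L11 and 5.92 for BBC3. With 100 bp to either side of the summit the GC box share was 43.9%, against 14.8% of all regions. The share of the TFAP2 motif (GCCNNNGGC) was 17.9% against 9.36%, where the 101 bp windows gave 9.76% against 5.17%. Within each kind of region the wider TFAP2 shares were closer. They were 10.4% against 7.26% at distal regions and 23.5% against 25.8% at coding starts. The density of every gene moved with the flank, for BCL2L1 to 10.4 with 100 kb (from the 39th to the 90.4th percentile of coding genes) and for BBC3 to 19.3 with 20 kb. The fold ratio around BCL2L1 was 0.878 (2 Mb), 0.959 (500 kb) and 0.867 (all regions), below 1 under each. The cause of these moves was not tested. Without counts or depth per library, the precision of a fold is unknown.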
